A study of Homo sapiens with 6 samples.

Results

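A set of 170 transcript models gained footprint share under RocA in naive cells and gained little or none in aglaiacized cells. A transcript model is a set of transcript rows with the same footprint counts in all 6 libraries, so 1 gene can have several. The members were chosen from the 20211 models whose mean count over the 6 libraries was 100 or more, of 38543 models with any count, and all 170 thus passed that minimum. For each model, N was the log2 ratio of CPM (counts scaled to a library total of 1000000) in naive RocA over the mean of naive DMSO, with 1 CPM added to both. A was the same ratio in the aglaiacized libraries. Each was set to 0 at its median over the 20211 models, which lay at -0.56 in naive and -0.24 in aglaiacized cells before this step. Members had N of at least 1.5 and A under 0.5. These values chose the members, so they and every measure made from the same libraries are given below as a description, and nothing is supported with them.

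The cells were HEK293T-REx, a tetracycline-repressor derivative of a human embryonic kidney line. Naive and aglaiacized cells each gave 2 libraries after the solvent DMSO and 1 library after RocA, and no other agent is named in the labels. The labels do not explain the word aglaiacized; in the study that line carries an eIF4A1 with residues of the plant Aglaia, and whether it is a single clone is not given in the sources used here. The labels give no dose or time and do not say whether the DMSO replicates were separate cultures, so the spread behind the p-values below is that of these libraries alone and may be technical.

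RocA, or rocaglamide A, is a compound made by Aglaia plants. Its target eIF4A is the RNA helicase that helps the small ribosomal subunit to load onto the 5′ end of an mRNA and to scan toward the start codon. RocA clamps eIF4A onto purine-rich stretches of RNA, so that initiation is blocked on some mRNAs more than on others. Ribosome profiling counts the RNA pieces that ribosomes shield from nuclease. A higher CPM in 1 library is always a higher share of that library's footprints. A transcript that loses less than the others gains share. Footprints were not set against mRNA levels here, so changes in mRNA and in its translation cannot be told apart.

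The 4 DMSO libraries held 18459239 to 28428267 counts, and the naive and aglaiacized RocA libraries held 8219273 and 8316797. The deposited rows carry transcript identifiers and no gene names, and none of the 170 members was found in the reference gene table. The kidney origin and the eIF4A genes could therefore not be checked, and no gene, promoter or protein is named or printed. The 4 members printed by identifier are those with the largest N minus A and the lowest A; other members are told apart by their listed length, a whole number per transcript whose unit the files do not state and whose values have the size of protein lengths.

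In naive cells all 170 members had their highest CPM of the 6 libraries under RocA. Their naive DMSO levels ran from 2.82 to 305 CPM in replicate 1, with a median of 10.3 CPM, and from 3.10 to 294 CPM in replicate 2, with a median of 10.9 CPM. In naive RocA they ran from 10.3 to 656 CPM, with a median of 24.9 CPM. The members had a median N of 1.70, with quartiles of 1.58 and 1.93, and the largest N was 2.67. The edgeR quasi-likelihood test over 31237 models called all 170 higher in naive RocA than in naive DMSO, where it called 32.4% of all models higher; N chose the members, so nothing is read from this count. Their fitted log2 fold changes ran from 1.54 to 2.98, and the largest adjusted p among them was 4.17e-10 (edgeR, Benjamini-Hochberg). Over all models tested, the median fitted log2 fold change was -0.10.

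By CPM, without setting the median of all models to 0, the same models stayed near their DMSO level in aglaiacized cells. The median member had 11.4 CPM and 12.7 CPM in the DMSO libraries and 12.7 CPM under RocA. The range was 3.89 to 262 CPM and 4.15 to 276 CPM in DMSO and 3.49 to 284 CPM under RocA. Under RocA, 97 members lay above both aglaiacized DMSO libraries, 28 lay below both and the rest lay between them. The matching share over all models was not counted, and A chose the members, so nothing is read from these counts. The median A was 0.35, with quartiles of 0.27 and 0.44 and a lowest value of -0.61. Most members (132) had A from 0.25 up to the limit of 0.5, and 71 had A of at least 0.4. A further 29 lay from 0 up to 0.25 and 9 lay below 0.

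Many members with a low A still had a called rise in aglaiacized cells. The edgeR test called 83 of 170 members higher under RocA there (48.8%) and 2 lower, where it called 24.5% of all models higher and 24.3% lower; A entered the choice of members, so nothing is read from these counts. The called rises were small, from 0.32 to 0.57 on the log2 scale. The 85 members with no call had a median fitted log2 fold change of 0.33 and a median mean count of 151, against 379 for the called rises. The number called depended on scaling and tool. Total counts without a scaling factor gave 1 call higher and 4 lower, with 51.8% of all models called in either direction. DESeq2 gave 38 calls, each of them higher, with 29.7% of all models called. The edgeR fit reported here called 48.9% of all models.

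**Figure D1:**
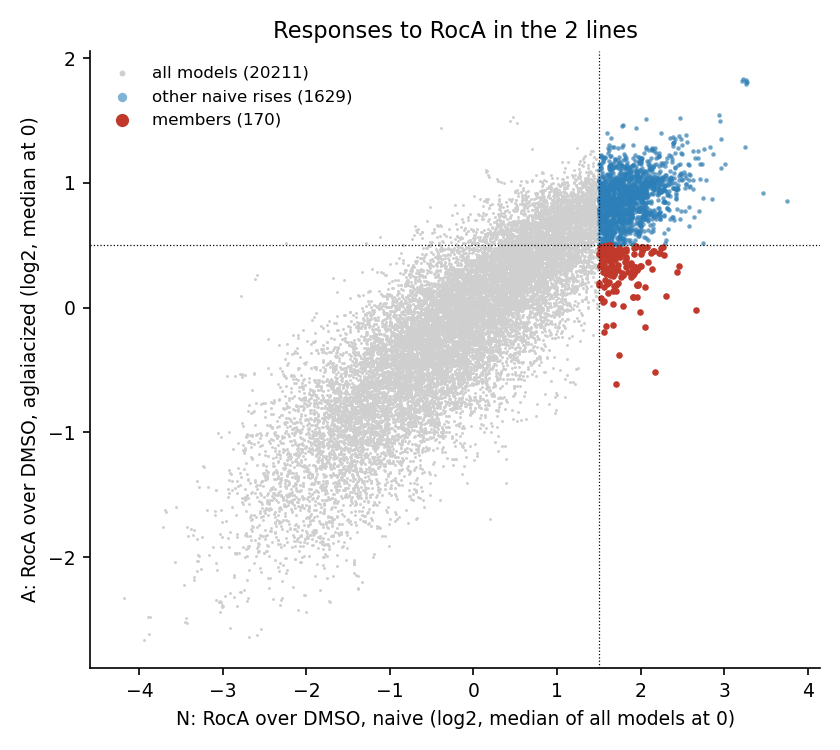
Response to RocA in naive cells (N, horizontal) against that in aglaiacized cells (A, vertical), both as log2 ratios of CPM with the median of all models at 0; each point is a transcript model and the dotted lines are the thresholds of 1.5 and 0.5. The 170 members (red) lie below the 1629 other models with N of at least 1.5 (blue). Of the members, 132 have A of at least 0.25, 71 have A of at least 0.4 and 9 lie below 0.

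Among the 1799 models with N of at least 1.5, the members were 9.45%. The other 1629 models, called other rises here, had A of at least 0.5, with a median A of 0.89 and a median N of 1.8002. Members were 10.8% of the models with N from 1.5 up to 2 and 6.19% from 2 up to 2.5. One member lay among the 42 models with N from 2.5 up to 3, and none among the 10 models with N of at least 3, whose lowest A was 0.86. The cloud had no gap at the limits. Just inside the limit on A lay a member with A of 0.4993 and just outside it a model with A of 0.5002; at the limit on N, the nearest values were 1.5005 inside and 1.4984 outside. A further 115 models had N of at least 1.5 and A from 0.5 up to 0.6, and 59 had A under 0.5 and N from 1.4 up to 1.5.

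The precision of a single member was limited by counts in the RocA libraries. The members held 85 to 5388 counts in naive RocA, with a median of 204.5, and 29 to 2358 counts in aglaiacized RocA, with a median of 106. The counting standard error was at the median 0.12 for N and 0.14 for A on the log2 scale. The 95% interval of A from counting error alone lay wholly below 0.5 for 46 members. It lay wholly above 0 for 113 members, included 0 for 55 and lay wholly below 0 for 2. The interval of N lay wholly above 1.5 for 78 members. For 25 members both intervals lay inside the thresholds. These intervals leave out the spread between cultures, and the RocA groups had 1 library each.

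Membership moved with the libraries used. Without naive DMSO replicate 1 the rule found 158 of the 170 members, and without naive DMSO replicate 2 it found 145. It found 159 without aglaiacized DMSO replicate 1, in a larger set of 252, and 126 without aglaiacized DMSO replicate 2. In all, 94 members were found whichever DMSO library was left out, and these had a median N of 1.78, a median A of 0.29 and a median listed length of 196. With all libraries thinned to the smallest total, 97 members kept a mean count of at least 100 and 54 were found again. Of the 94, 33 were found again in the thinned libraries.

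At 2.692, against 2.685 for the next member, the largest N minus A was that of uc010rmf.2, a model of 127 length units. It had 7.15 and 6.99 CPM in naive DMSO and 23.6 CPM in naive RocA, but 9.33 and 9.99 CPM in aglaiacized DMSO and 5.29 CPM in aglaiacized RocA. Naive RocA was the highest and aglaiacized RocA the lowest of the 6 libraries. Its N was 2.17 and its A was -0.52. The fitted log2 fold change was 2.32 (SE 0.18) in naive cells and -0.57 (SE 0.25, edgeR adjusted p = 0.0452) in aglaiacized cells. The latter call was not made with RLE factors, with the replicate block, with DESeq2, without either naive DMSO replicate or without aglaiacized DMSO replicate 2, where the log2 fold change was -0.51. The difference between the responses, aglaiacized minus naive, was -2.89 (SE 0.29, edgeR adjusted p = 4.6e-13). This model was picked for its N minus A, so nothing is read from that p-value.

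The adjoining row of the files, uc010rme.1, had the lowest A of all members, at -0.61. With a listed length of 172, it held 11.5 and 9.98 CPM in naive DMSO, 24.9 CPM in naive RocA, 13.6 CPM in both aglaiacized DMSO libraries and 7.09 CPM in aglaiacized RocA. The RocA library lay outside the DMSO pair in both lines, above it in naive and below it in aglaiacized cells. The fitted log2 fold change was 1.7998 (SE 0.17) in naive cells and -0.64 (SE 0.22, edgeR adjusted p = 0.0113) in aglaiacized cells. DESeq2 did not call the latter (-0.60). This model was picked for its low A, so nothing is read from that p-value. These 2 neighbouring models were the only members with a called fall in aglaiacized cells. Models on adjoining rows can share reads, so these falls may be 1 event.

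The model uc001nfv.4, with a listed length of 142, had the largest N of all members. It went from 3.25 and 3.42 CPM in naive DMSO to 17.6 CPM in naive RocA. In aglaiacized cells it had 5.86 and 7.18 CPM in DMSO and 5.29 CPM under RocA, a level below both DMSO libraries. The fitted log2 fold change was 2.98 (SE 0.22) in naive cells and -0.01 (SE 0.26, edgeR adjusted p = 0.973) in aglaiacized cells. The difference was -3.00 (SE 0.32, edgeR adjusted p = 3.2e-12). This model, too, was picked for its N minus A, so nothing is read from that p-value. It stood in a run of 4 members on adjoining rows, of 128 to 192 length units, whose N ran from 1.91 to 2.67 and whose A ran from -0.02 to 0.33.

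The model uc003upi.2 of 116 length units, had A of -0.38. It had 6.12 and 6.35 CPM in naive DMSO, 15.3 CPM in naive RocA, 5.81 and 5.98 CPM in aglaiacized DMSO and 3.49 CPM in aglaiacized RocA, its lowest library. The DMSO libraries of both lines lay close together, and only the RocA libraries stood apart from them. The last value rests on 29 counts, and the log2 fold change in aglaiacized cells was -0.46 (SE 0.29, edgeR adjusted p = 0.19). Of the remaining members with A below 0, the one with the most counts had 105 length units and A of -0.16. It had 39.8 and 43.4 CPM in naive DMSO and 119 CPM in naive RocA. In aglaiacized cells it had 34.0 and 44.6 CPM in DMSO and 29.6 CPM under RocA. Next by counts was a model of 144 length units with A of -0.04. It had 27.2 and 22.5 CPM in naive DMSO and 68.6 CPM in naive RocA. In aglaiacized cells it had 23.5 and 31.2 CPM in DMSO and 22.4 CPM under RocA. Aglaiacized RocA was the lowest of the 6 libraries for both, although by little for the second. Of the 9 members with A below 0, 7 were found whichever DMSO library was left out. With all libraries thinned to the smallest total, 4 of the 9 kept a mean count of at least 100. Of the 7, 2 were found again in the thinned libraries.

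**Figure D2:**
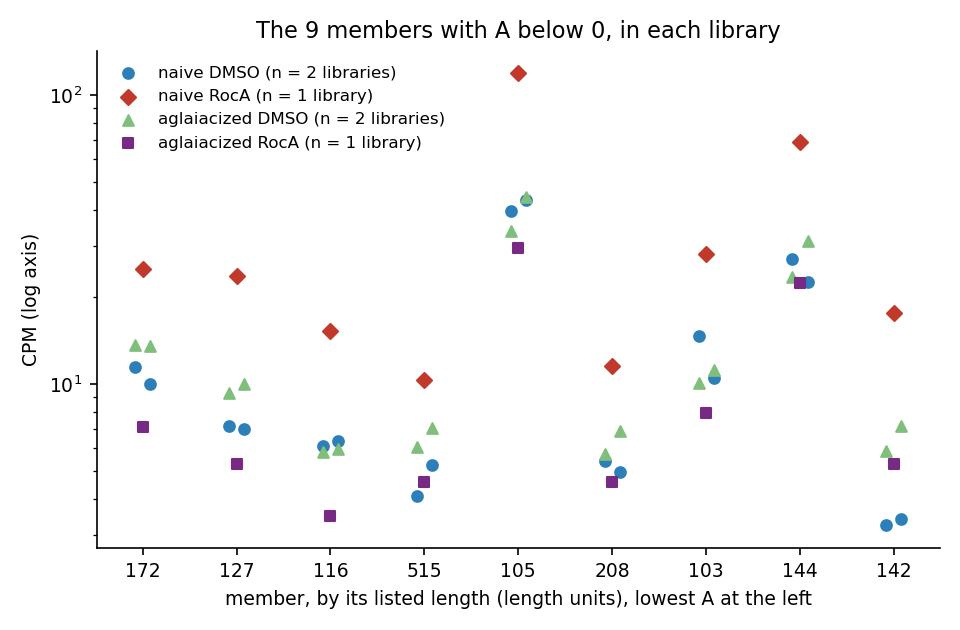
CPM (log axis) of the 9 members with A below 0 in each of the 6 libraries, ordered from the lowest A at the left and labelled by listed length. Naive RocA (red diamonds, 1 library) lies above every other library for all 9, while aglaiacized RocA (purple squares, 1 library) lies below both aglaiacized DMSO libraries (green triangles, 2 libraries).

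Per listed length, the members were of middling abundance in DMSO. A level per length here is CPM per 100 length units, and the rank is the percent of the 20211 models at or below it. The median member ranked at 50.4% and 53.8% in naive DMSO and at 80.3% in naive RocA. In aglaiacized cells the median rank was 57.6% and 58.8% in DMSO and 62.9% under RocA. The other rises started higher, with median ranks of 63.7% in both naive DMSO libraries and 85.7% in naive RocA, and they reached 79.4% in aglaiacized RocA from 66.1% and 67.9% in DMSO. The densest member by this measure had a listed length of 106 and 282 CPM per 100 length units in naive DMSO on average. It had 305 and 294 CPM in naive DMSO, 656 CPM in naive RocA, 262 and 276 CPM in aglaiacized DMSO and 284 CPM in aglaiacized RocA. All libraries but naive RocA thus lay close together, and aglaiacized RocA was above both aglaiacized DMSO libraries by little (A of 0.32).

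**Figure D3:**
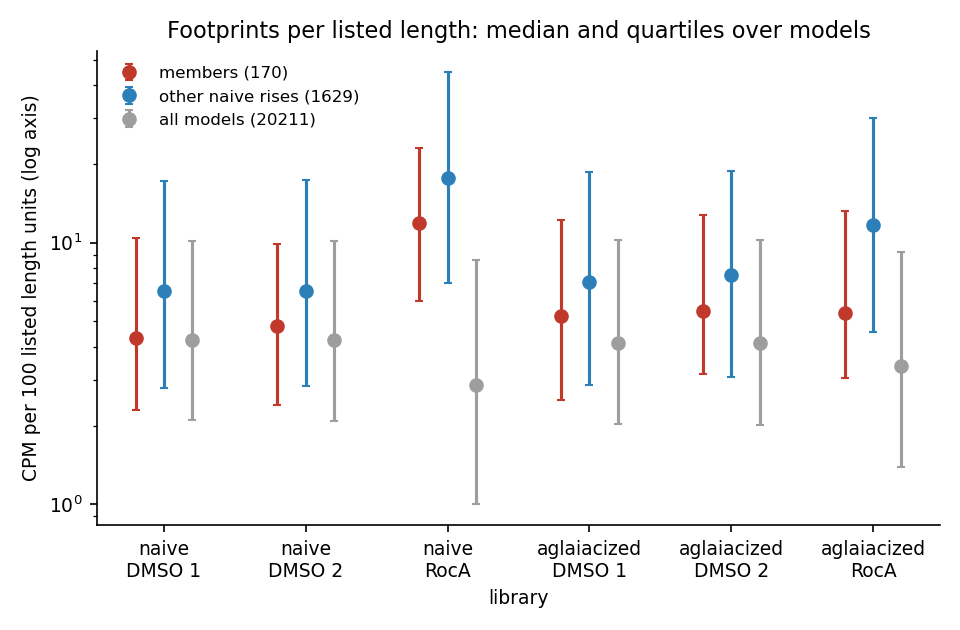
Footprints per listed length (CPM per 100 length units, log axis) in each library for the members, the other naive rises and all 20211 models; points are medians over models and bars run from the lower to the upper quartile. The median of the members goes from 4.31 and 4.81 in naive DMSO to 11.9 in naive RocA, and stays at 5.25, 5.48 and 5.38 in the aglaiacized libraries.

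A sets the RocA level of the aglaiacized line against its DMSO level, so each level is compared with the naive line here. The part of each in the low A was not tested. The gap in DMSO, aglaiacized CPM over naive CPM, had a median of 0.27 on the log2 scale over the members, 0.17 over the other rises and 0 over all models, the last by its centring. The gap under RocA, naive over aglaiacized, had a median of 1.03 over the members and 0.79 over the other rises. The gap under RocA was the larger one in 160 of 170 members. The rule favours both gaps, since the same DMSO libraries enter N and A, so their size is no result about the members.

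In single DMSO libraries, 100 members (58.8%) were higher in both aglaiacized libraries than in both naive ones, and 22 were lower in both, where among all 20211 models 32.8% were higher and 39.7% lower. The edgeR test called 86 members higher in aglaiacized than in naive DMSO and 8 lower, against 19% of all models called higher and 16.6% lower. These calls used libraries of the rule and are read as a description. DESeq2 called 46 members, with 11.5% of all models called in either direction, against 35.6% in the edgeR fit. Dropping either naive DMSO library also gave fewer calls, both among the members and among all models. The median log2 fold change of the members was 0.31 in the edgeR fit and 0.31 by DESeq2. Dropping naive replicate 1 gave 0.32, and dropping naive replicate 2 gave 0.34. The widest DMSO gap was that of a pair of members on adjoining rows. The first of them, of 245 length units, had 24.8 and 20.6 CPM in naive DMSO, 62.9 CPM in naive RocA, 44.2 and 49.4 CPM in aglaiacized DMSO and 50.02 CPM in aglaiacized RocA. It was high in every aglaiacized library, and its DMSO gap of 1.05 exceeded its RocA gap of 0.57.

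At the other end stood members that were lower in aglaiacized DMSO and still had a low A. A run of 4 models with listed lengths of 1424 to 1437, the longest members, showed nearly the same values throughout. The longest had 14.1 and 12.8 CPM in naive DMSO, 37.4 CPM in naive RocA, 9.80 and 10.3 CPM in aglaiacized DMSO and 9.62 CPM in aglaiacized RocA. Its DMSO gap was -0.35 and its RocA gap 2.096. All 3 aglaiacized libraries lay below all 3 naive ones for this model. The most negative DMSO gap, -0.59, belonged to a model of 328 length units with A of 0.41.

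**Figure D4:**
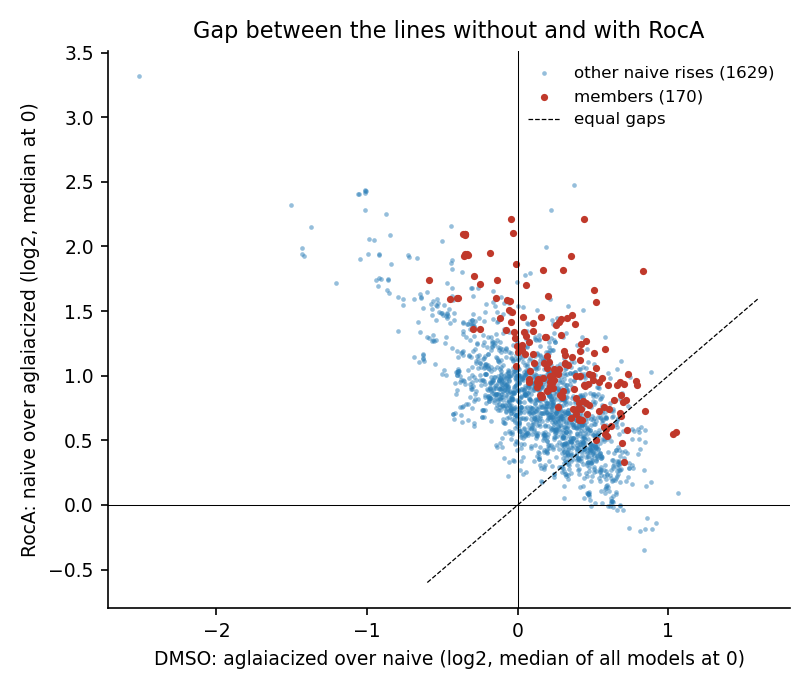
Gap between the lines in DMSO (horizontal, aglaiacized over naive) against the gap under RocA (vertical, naive over aglaiacized), as log2 ratios of CPM with the median of all models at 0; red points are the 170 members, blue points the 1629 other naive rises, and the dashed line marks equal gaps. All but 10 members lie above the dashed line, and 136 lie to the right of 0.

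In the edgeR fit the responses of the lines differed past the threshold for all 170 members, each with the smaller response in aglaiacized cells; over all models 14.3% were called in that direction. The rule set N and A apart by at least 1, so this count is fixed by the choice and nothing is read from it. The fitted differences, aglaiacized minus naive, ran from -3.00 to -1.02 with a median of -1.42, and the median over all models tested was 0.000703. The largest adjusted p among the members was 0.0038 (edgeR). DESeq2 called 161 of the 170. With 1 RocA library per line, an exact permutation test has too few arrangements to pass any usual threshold, and none was made.

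Listed length did not enter the rule, and the members were shorter than the other models. Their median listed length was 213, with quartiles of 144.5 and 437, against 320 (176 and 553) for the other rises and 445 (265 and 724) for all 20211 models. Models of at most 200 length units were 76 of the 170 members, 509 of the 1629 other rises and 3233 of all 20211 models. Models share reads and are not replicates, so no test was made over them, and with 1 member taken from each run of nearby rows the median was 208. The other rises, too, were shorter than all models.

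The members were a larger share of the models of at most 200 length units than of the longer ones. They were 2.31% of the models of at most 100 length units (12 members), 2.36% of those over 100 and up to 200 (64 members) and 0.757% of those over 200 and up to 500 (62 members). Over 500 and up to 1000 they were 0.345% (21 members), and above 1000 they were 0.409% (11 members in 3 runs). The other rises also thinned out, from 20.4% of the shortest class to 4.65% of the longest. Members were thus 10.2% of all models with N of at least 1.5 in the shortest class, 13.7% in the next, and 9.04%, 5.36% and 8.09% in the longer ones. The median N minus A was 1.503 over 100 and up to 200 length units and 1.18 over 500 and up to 1000.

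The coverage of the shortest members varied. The shortest of all, at 47 length units, had 99.4 and 87.0 CPM in naive DMSO, 182 CPM in naive RocA, 105 and 115 CPM in aglaiacized DMSO and 119 CPM in aglaiacized RocA. Its neighbour of 58 length units had much the same values and may share its reads. The members of 59 and 60 length units had fewer reads, with 7.69 and 5.82 CPM and with 6.28 and 7.85 CPM in naive DMSO. A model of 70 length units on a distant row had 80.0 and 84.4 CPM in naive DMSO, 170.1 CPM in naive RocA, 98.0 and 121 CPM in aglaiacized DMSO and 106 CPM in aglaiacized RocA. For this model aglaiacized RocA lay between the aglaiacized DMSO libraries, while naive RocA lay above both naive DMSO libraries.

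**Figure D5:**
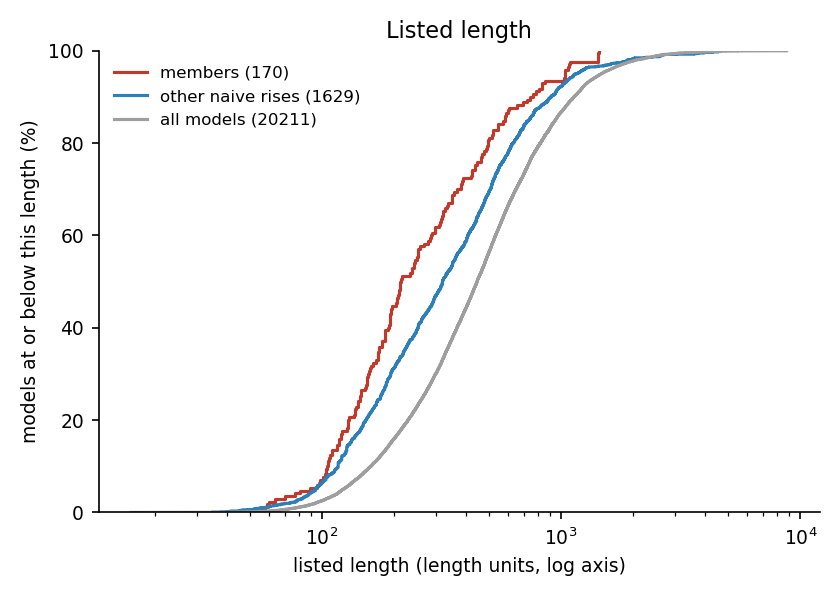
Percent of models at or below each listed length (length units, log axis) for the 170 members, the 1629 other naive rises and all 20211 models. The curve of the members lies to the left, with a median of 213 against 320 and 445.

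The members had fewer counts than the other rises. Their mean count over the 6 libraries had a median of 220 against 427 for the other rises and 299 for all models, and 44.7% of the members had a mean count under 200, against 22.2% and 32.2%. Among the models with N of at least 1.5, members were 19.9% in the lowest of 5 equal groups by mean count (100 to 154) and 3.24% in the highest (780 and above). The counting error of A was larger at low counts, with a median standard error of 0.14 in the members and 0.09 in the other rises. The part of this in the choice of members was not tested.

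The rule used the mean of the DMSO replicates and not their difference, but the same libraries enter N and A. The replicate differences are thus not independent of the choice of members and are given as a description. The size of the log2 difference between the naive DMSO libraries had a median of 0.14 over the members, 0.08 over the other rises and 0.08 over all models. Between the aglaiacized DMSO libraries the medians were 0.16, 0.12 and 0.12. Where the mean count was 500 or more, the naive medians were 0.14 for 39 members, 0.07 for 740 other rises and 0.06 for all 6358 models, and the aglaiacized medians were 0.15, 0.11 and 0.11. Where it was from 200 up to 500, the naive medians were 0.14, 0.09 and 0.09, but the aglaiacized median of the 55 members was lower, at 0.10 against 0.13 for the other rises and for all models. The largest difference seen in any member was 0.72 between the naive and 0.47 between the aglaiacized replicates.

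Many members stood near each other in the files. Taking members at most 4 rows apart as a run, the 170 formed 113 runs: 80 members stood alone, and the others formed 18 runs of 2, 9 of 3, 4 of 4, 1 of 5 and 1 of 6. The run of 6 had listed lengths from 763 to 854, N of 1.52 or 1.53 and A from 0.475 to 0.487, close inside both limits. The run of 5, of 491 to 521 length units, had N from 1.88 to 1.95 and A from 0.25 to 0.32. Values within these runs were nearly equal, as they are in models that share reads. In all, 145 members had another well-covered model within 4 rows that was not a member, but for only 7 did such a model have counts within 10% in every library. Each of these 7 had its near copy among the other rises.

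All members together took 0.337% and 0.329% of the counts in naive DMSO and 0.770% in naive RocA. In aglaiacized cells they took 0.374% and 0.410% in DMSO and 0.424% under RocA. Counting 1 member per run, the shares were 0.240% and 0.236% in naive DMSO, 0.541% in naive RocA, 0.267% and 0.290% in aglaiacized DMSO, and aglaiacized RocA had 0.299%. Either way the share in aglaiacized RocA lay just above both aglaiacized DMSO libraries.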

How the data were processed

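RNase I footprinting and pelleting of ribosomes preceded RNA extraction and rRNA depletion, per the labels' protocols. The submitters' processing notes list CASAVA 1.8, Bowtie2 2.1.0, TopHat2 2.0.9 and the build hg19; the program that counted, and how it treated reads with several matches, is not given in the sources used here. The authors deposited raw counts, 1 whole number per transcript row, and a length as another column (other unit, not stated).

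Of 82960 rows, 19269 had no length and held 0 counts. The rest were merged where counts were equal in all 6 libraries, keeping the first identifier and the longest length. The main test was that of edgeR 4.0.16 (R 4.3.3; quasi-likelihood, TMM factors, 4 groups, 2 residual degrees of freedom) on the 31237 models whose mean count was 20 or more, with two-sided p-values adjusted over all of them by Benjamini-Hochberg (threshold 0.05). RocA groups of 1 library were assumed to vary like the DMSO pairs. Standard errors (SE) are the log2 fold change, without its sign, over the root of F. The fit was tested on simulated data that gave the RocA libraries the same spread as the others. The assumption about the RocA groups was thus not tested. Levels are CPM by library total. The alternatives were RLE factors, no factor, DESeq2 1.42.0, other count minimums, the replicate block and leaving out each DMSO library; for the rule, they also covered the pseudocount, thresholds, merging and thinning. Models printed by identifier had at least 20 counts in every library and were the 2 with the largest N minus A and the 2 with the lowest A not yet taken. The members and all comparisons were chosen with earlier results of these data known. Intervals cover counting error only.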

Additional observations from a re-analysis of the deposited data

Results flagged for a closer look

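By edgeR, the RocA responses of the 2 lines differed past the threshold in 170 of 170 members, which the choice of members fixes. Among the models printed by identifier, this difference, aglaiacized minus naive, was -3.00 for uc001nfv.4, -2.34 for uc003upi.2, -2.44 for uc010rme.1 and -2.89 for uc010rmf.2 on the log2 scale. Each was called by edgeR (largest adjusted p 4.41e-08, for uc003upi.2). The spread behind this test is that of the DMSO pairs, since no RocA library has a replicate.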

How the results depend on the processing

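All alternatives were planned except taking 1 member per run of nearby rows, which was added after the data were seen. The 170 members were called in naive cells under each edgeR and DESeq2 setting, and the difference of the responses was called for 161 to 170. With 1 member per run these counts were 113 and 113 of 113, with 54 in place of 85 for RocA in aglaiacized cells and 60 in place of 94 between the lines in DMSO; fewer members were then counted. For RocA in aglaiacized cells, total counts with no factor called 5 members and 51.8% of all models, in place of 48.9%. The median log2 fold change of all models was then -0.34 in place of -0.04. DESeq2 called 38 members and 29.7% of all models. Leaving out a DMSO library gave median log2 fold changes of 0.34 to 0.52 over the members, against 0.42 in the fit reported. For the lines in DMSO, DESeq2 gave 46 and leaving out a DMSO library gave 51 to 113, with 51 and 59 without naive replicate 1 and 2. The cause was not tested for the other changes. The replicate block left 170, 85, 170 and 89 members called in these comparisons (76 of the 85 shared). The deviations of DMSO libraries with the same number had a correlation of -0.05 across models. The RocA libraries carry no number, and the block placed both with replicate 1 in the RocA comparisons. That placement is a choice the labels do not give.

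The number of members was 83 with a pseudocount of 5 CPM (45 of them shared with the 170), 192 with 0.1 CPM, 209 with a minimum mean count of 50, 72 with one of 300 (34 shared) and 181 without merging. Libraries thinned to the smallest total gave 105 members, and the rule without each DMSO library gave 149 to 252. Other thresholds gave 27 (N of at least 2), 9 (A under 0) and 836 (N of at least 1). The median listed length was 208 with 1 member per run. Near 0, the log2 fold change of uc001nfv.4 in aglaiacized cells, -0.01 in the fit reported, was 0.029 with RLE factors, 0.11 with the replicate block, 0.037 with DESeq2 and -0.14 to 0.16 without each DMSO library in turn. That of uc003upi.2 between the lines in DMSO, -0.02, was 0.0049 with no filter on counts and -0.054 to 0.0043 without each DMSO library. None of these was called.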
